A study of Homo sapiens with 12 samples.

Results

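The pro-apoptotic arm of the BCL2 family was followed in hypoxic U87 cells, the human glioblastoma line U-87 MG. Cells with and without knockout of the hypoxia-inducible factors HIF1α and HIF2α were compared. The 10 genes were listed by name, with no threshold on their values: the effectors BAX and BAK1, and the BH3-only genes BBC3 (PUMA), PMAIP1 (NOXA), BCL2L11 (BIM), BAD, BID, BIK, BMF and HRK. All 10 were found among the 20263 genes of the expression table, and 9 of them passed the filter for testing, a level of at least 1 TPM in at least 3 libraries, as did 11731 genes in all. TPM is a transcript abundance per length of the gene, scaled to the same sum in each library, so that levels of different genes can be set side by side, but it keeps no sequencing depth. BIK, listed at 0 in 9 of the 12 libraries and at no more than 0.0891 TPM in the rest, was the gene left untested.

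The cells of all 4 groups, each with 3 libraries of messenger RNA, were kept at 1% O2: cells with the empty vector (vector), cells with HIF1α knocked out (HIF1α-ko), cells with HIF2α knocked out (HIF2α-ko), and cells with both knocked out (HIF1α/2α-ko). The record of the experiment gives 72 h of hypoxia and the methods give 12 h for mRNA detection, so every group shares the low oxygen and none is a normoxic control. In the methods, 3 days of hypoxia in other assays went with temozolomide, a chemotherapy drug. The treatment labels of these libraries name no drug. The sources read do not say whether a knockout line is 1 clone or whether the 3 libraries of a group came from separate cultures, and p-values therefore measure the spread between these libraries, which may be technical. As the samples are bulk cultures, fewer cells that express a gene and less of its RNA per cell cannot be told apart.

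Cells commit to the mitochondrial pathway of apoptosis when BAX and BAK1 assemble in the outer mitochondrial membrane and open it, releasing cytochrome c to the caspases. Survival proteins such as BCL-XL (gene BCL2L1) and MCL1 hold the effectors in check, and BH3-only proteins, each made or switched on by a different kind of stress, bind the survival proteins or the effectors through their BH3 domain and so tip the balance. Protein activity in this family is also set by cleavage, phosphorylation and location, none of which a transcript level shows.

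The targeted genes were checked first. HIF1A was at 38.6 to 57.3 TPM in HIF1α-ko and at 110.0 to 151 TPM in vector (log2 fold change -1.34, adjusted p = 0.000851), and EPAS1, which encodes HIF2α, was at 87.6 to 118 TPM in HIF2α-ko and at 286 to 346 TPM in vector (-1.59, adjusted p = 0.000375). In HIF1α/2α-ko the fold changes were -0.71 for HIF1A (adjusted p = 0.0104) and -1.45 for EPAS1 (adjusted p = 1.3e-05). Neither transcript was near 0 in any library, and HIF1A in HIF1α/2α-ko, at 67.8 to 89.2 TPM, overlapped its level in HIF2α-ko, at 76.1 to 108 TPM. The HIF1α/2α-ko values also exceeded the whole HIF1α-ko range of HIF1A. All 6 markers of a mesenchymal glioblastoma line reached 1 TPM. VIM stood at 5635 to 14690 TPM, with a mean of 13003 TPM in vector and 6770 TPM in HIF1α/2α-ko. In the same 2 groups the means were 461 and 128 TPM for FN1, 855 and 715 TPM for CD44, 878 and 708 TPM for TNC, and 1778 and 2876 TPM for S100A6. NES was at only 2.64 to 6.17 TPM. CDKN2A, which U-87 MG has lost, was listed at 0 throughout, as were AQP4 and MOG. Of 4 astrocyte markers GFAP did not pass 0.639 TPM while ALDH1L1 stood at 17.4 to 65.8 TPM. All 3 endothelial markers reached 1 TPM in some library, with a sum of 1.60 to 6.64 TPM in vector and 1.15 to 1.89 TPM in HIF1α/2α-ko, and of 3 neuronal markers SNAP25 did, at up to 4.28 TPM. Of 3 immune markers only CD68 reached 1 TPM; their sum was 1284 to 1633 TPM in vector and 587 to 818 TPM in HIF1α/2α-ko, PTPRC was at no more than 0.033 TPM, and the part of these shifts in the results was not tested.

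Because HIFs can bind at the promoter of a gene, the stretches before the RefSeq starts of the effectors and of BBC3 are shown. They come from RefSeq on GRCh38.p14, run 5′ to 3′ on the strand of the gene, begin 250 bases before the RefSeq start and stop at that start or, where it lies earlier, at the first protein-coding transcript of GENCODE 29. Capitals mark the core of the hypoxia response element, ACGTG or GCGTG, read on either strand; CACGTG, which holds ACGTG on both strands, is capitalised whole and counted as 1 core.
BAX, chr19:48954625-48954874, plus strand: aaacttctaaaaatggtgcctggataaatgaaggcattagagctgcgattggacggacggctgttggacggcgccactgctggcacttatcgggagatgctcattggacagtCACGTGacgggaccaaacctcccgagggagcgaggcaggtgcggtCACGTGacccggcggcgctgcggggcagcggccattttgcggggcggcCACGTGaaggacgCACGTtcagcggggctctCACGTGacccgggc
BAK1, chr6:33580294-33580526, minus strand: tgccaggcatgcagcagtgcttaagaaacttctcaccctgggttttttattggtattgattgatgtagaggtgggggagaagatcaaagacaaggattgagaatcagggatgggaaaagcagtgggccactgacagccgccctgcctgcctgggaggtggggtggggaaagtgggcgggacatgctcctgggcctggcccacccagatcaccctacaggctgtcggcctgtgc
BBC3, chr19:47232767-47232917, minus strand: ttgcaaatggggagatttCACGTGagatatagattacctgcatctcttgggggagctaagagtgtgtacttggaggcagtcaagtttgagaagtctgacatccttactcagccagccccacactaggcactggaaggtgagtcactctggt

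The BAX promoter held 5 separate cores, 4 of which were CACGTG, starting 138, 93, 45 and 14 bases before the start. At least 5 separate cores were found in 0.994% of the 35116 promoter windows of the same RefSeq table, each of 250 bases before to 50 after a start, and at least 4 CACGTG in 0.0142% of them (5 windows). BAK1 held no core in its window and BBC3 held 1. Of the 9 members with a window, 7 had a core in at least 1 window (77.8%), against 52.4% of all 27305 genes, and a single window held one in 48.4% of cases. The 9 members had 15 windows and all genes 35116, and a gene with more windows has more chances of a core. Cores also stood in windows of PMAIP1 (2, both GCGTG), BCL2L11 (2), BAD, BID and BMF, and none in that of HRK. In HIF1α/2α-ko the changes on log2(TPM + 1), described next, were 2.25 for BAK1, 2.04 for BBC3 and 0.94 for BAX. A link between cores and changes was not tested. These matches are letters in a window and say nothing of binding. The ranks of the BAX window are thus no measure of HIF sites, and which factors read CACGTG was not tested.

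In all 4 groups a few members supplied most of the transcripts. BAX, BID and BAD together made up 90.5 to 94.2% of the members' summed TPM in the vector libraries and 85.8 to 86.6% in the HIF1α/2α-ko libraries. In vector the order was BAX (122 ± 14.2 TPM, SD, n = 3), BID (69.3 ± 0.514 TPM), BAD (67.6 ± 16.0 TPM), BMF (7.55 ± 1.50 TPM), BBC3 (4.01 ± 0.733 TPM), HRK (3.91 ± 0.0837 TPM), BAK1 (2.22 ± 0.190 TPM), PMAIP1 (1.79 ± 1.59 TPM), BCL2L11 (0.296 ± 0.0413 TPM) and BIK. The neighbours BID and BAD, BBC3 and HRK, and BAK1 and PMAIP1 overlapped in that order, and the other neighbours did not. In HIF1α/2α-ko BBC3 and BAK1 came next after BAX, BAD and BID, above PMAIP1, BMF and HRK, which overlapped one another. The summed level of the 10 members was 278 ± 23.8 TPM in vector, 337 ± 23.6 TPM in HIF1α-ko, 355 ± 24.2 TPM in HIF2α-ko and 439.6 ± 29.6 TPM in HIF1α/2α-ko (SD, n = 3 each). The effectors supplied 124, 164, 143 and 249 TPM of it in the same order of groups, and the BH3-only genes 154, 173, 212 and 190.3 TPM, a sum that was highest in HIF2α-ko.

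BAX, the effector that waits in the cytosol and moves to mitochondria, had the highest level of the family in every group. Its level was 107, 135 and 124 TPM in vector, 153, 155 and 167 TPM in HIF1α-ko, 153, 134 and 136 TPM in HIF2α-ko, and 200.3, 256 and 249 TPM in HIF1α/2α-ko, replicates 1 to 3 in each case. All HIF1α/2α-ko libraries were above all others, the HIF1α-ko libraries lay above the vector libraries by a small margin, and HIF2α-ko overlapped vector. Fold changes here are differences of log2(TPM + 1) from limma, with its SE, and adjusted p is by Benjamini-Hochberg over the 11731 genes of a comparison. BAX rose in HIF1α/2α-ko by 0.94 (SE 0.13, adjusted p = 0.000113), which is 1.93-fold by mean TPM. Its difference in HIF1α-ko was 0.38 (SE 0.13) and passed the test narrowly (adjusted p = 0.0469); the call was lost in 15 of 20 alternative settings, among them median ratio scaling (0.19, adjusted p = 0.375). In HIF2α-ko it was 0.21 (SE 0.13, adjusted p = 0.327).

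BAK1, the effector that resides in the mitochondrial membrane, was at far lower levels than BAX and moved further. It was at 2.24, 2.39 and 2.02 TPM in vector, 6.49, 4.80 and 5.21 TPM in HIF1α-ko, 2.75, 2.75 and 2.74 TPM in HIF2α-ko, and 15.2, 14.1 and 13.5 TPM in HIF1α/2α-ko. No library of any group overlapped another group. BAK1 rose in HIF1α-ko by 1.01 (SE 0.15, adjusted p = 0.000851) and in HIF1α/2α-ko by 2.25 (SE 0.15, adjusted p = 9.27e-07), or 2.48-fold and 6.44-fold by mean TPM. The HIF2α-ko libraries stood just above vector, by 0.22 (95% interval -0.10 to 0.54), which did not pass the test. The ratio of BAX to BAK1 transcripts within a library was 47.7 to 61.5 in vector, 48.5 to 55.5 in HIF2α-ko, 23.6 to 32.2 in HIF1α-ko and 13.2 to 18.5 in HIF1α/2α-ko. It was thus lower in both groups with HIF1α knocked out. BAK1 has 2 named pseudogenes, BAK1P1 and BAK1P2, and how reads were shared with them is not given in the sources used here.

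BBC3 encodes PUMA, a BH3-only protein that binds all the survival proteins. Its level was 4.67, 3.22 and 4.12 TPM in vector, 7.07, 5.88 and 6.21 TPM in HIF1α-ko, 4.75, 6.09 and 5.55 TPM in HIF2α-ko, and 19.5, 18.9 and 19.8 TPM in HIF1α/2α-ko. The HIF1α/2α-ko libraries lay close together and far above the rest, and both single knockouts lay above vector. BBC3 rose in HIF1α/2α-ko by 2.04 (SE 0.16, adjusted p = 2.57e-06), which is 4.84-fold by mean TPM. In HIF1α-ko the difference was 0.57 (SE 0.16, adjusted p = 0.0206), a call lost in 7 of 20 settings (adjusted p = 0.0678 with median ratio scaling and 0.0847 when vector replicate 2 was left out). HIF2α-ko lay above vector by 0.37 (SE 0.16, adjusted p = 0.150).

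PMAIP1 encodes NOXA, a BH3-only protein that binds MCL1 above all. Its level was 3.63, 0.882 and 0.870 TPM in vector, 2.08, 3.50 and 2.96 TPM in HIF1α-ko, 2.83, 3.12 and 2.11 TPM in HIF2α-ko, and 6.12, 10.9 and 10.7 TPM in HIF1α/2α-ko. Vector replicate 1 stood apart from the other vector libraries and slightly above every single-knockout library, and replicate 1 was also the lowest of HIF1α/2α-ko. PMAIP1 rose in HIF1α/2α-ko by 1.97 (SE 0.33, adjusted p = 0.000436), or 5.14-fold by mean TPM. Without vector replicate 1 this became 2.41 (adjusted p = 2.83e-05) and 10.5-fold. HIF1α-ko lay 0.58 (adjusted p = 0.203) and HIF2α-ko 0.53 (adjusted p = 0.330) above vector. Without the same library both passed, at 1.02 (adjusted p = 0.00931) and 0.96 (adjusted p = 0.0193).

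BCL2L11 encodes BIM, which binds every survival protein and can engage BAX directly. It was scarce, at 0.343, 0.281 and 0.265 TPM in vector, 0.756, 1.22 and 1.58 TPM in HIF1α-ko, 0.801, 0.632 and 0.111 TPM in HIF2α-ko, and 1.58, 1.53 and 2.77 TPM in HIF1α/2α-ko. It reached 1 TPM in 5 libraries, all of them HIF1α-ko or HIF1α/2α-ko, and so entered the test only through the groups in which it was high. Its difference from vector was 0.74 in HIF1α-ko (SE 0.22, adjusted p = 0.0283) and 1.17 in HIF1α/2α-ko (SE 0.22, adjusted p = 0.000974), and both groups lay above vector in every library; since the filter favours such a difference, these p-values are a description and not evidence. At this level the pseudocount of 1 holds the fold change down: by mean TPM the ratios were 3.99 and 6.61. The HIF1α-ko call was lost in 6 of 19 settings, among them the fit without the filter (adjusted p = 0.0647), and HIF2α-ko differed by 0.19 (adjusted p = 0.619). A lincRNA on the opposite strand, MIR4435-2HG, shares 10.9% of the BCL2L11 exon bases, and whether strand was used in counting is not given in the sources used here.

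HRK (Harakiri), a BH3-only gene best known in neurons, followed a different order. Its level was 3.99, 3.90 and 3.83 TPM in vector, 3.90, 3.74 and 4.14 TPM in HIF1α-ko, 6.27, 6.20 and 5.75 TPM in HIF2α-ko, and 7.76, 7.53 and 7.34 TPM in HIF1α/2α-ko. Vector and HIF1α-ko overlapped, and both groups with HIF2α knocked out stood above them. HRK rose in HIF2α-ko by 0.53 (SE 0.13, adjusted p = 0.0238) and in HIF1α/2α-ko by 0.80 (SE 0.13, adjusted p = 0.000364), while HIF1α-ko differed from vector by 0.00 (SE 0.13, adjusted p = 0.980; 95% interval -0.28 to 0.29). The HIF2α-ko call was lost in 6 of 20 settings, including the removal of any 1 of the HIF2α-ko libraries.

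BAD, which growth factor signalling holds inactive by phosphorylation, was highest in HIF2α-ko. Its level was 51.5, 67.6 and 83.6 TPM in vector, 91.9, 78.6 and 112 TPM in HIF1α-ko, 120.3, 92.3 and 132 TPM in HIF2α-ko, and 78.8, 82.5 and 71.9 TPM in HIF1α/2α-ko. The vector libraries spread widely, HIF2α-ko lay above all of them, and HIF1α/2α-ko lay within their range. BAD rose in HIF2α-ko by 0.77 (SE 0.19, adjusted p = 0.0253), a call lost in 5 of 20 settings (adjusted p = 0.0658 without the filter and 0.104 without HIF2α-ko replicate 3). The difference was 0.49 in HIF1α-ko (adjusted p = 0.0800; 0.65, adjusted p = 0.0479 without vector replicate 3) and 0.22 in HIF1α/2α-ko (adjusted p = 0.362; 95% interval -0.19 to 0.64). GPR137, on the opposite strand, shares 404 bases or 23.7% of the BAD exon bases. It was at 19.1 to 28.0 TPM in vector, 20.4 to 29.6 TPM in HIF1α-ko, 18.8 to 20.3 TPM in HIF2α-ko and 24.1 to 30.5 TPM in HIF1α/2α-ko, and its part in the BAD values was not tested.

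BID, which caspase-8 cleaves to link death receptors to mitochondria, kept group means between 56.1 and 76.3 TPM. Its level was 69.0, 69.9 and 69.0 TPM in vector, 60.9, 53.3 and 54.1 TPM in HIF1α-ko, 74.6, 77.1 and 77.3 TPM in HIF2α-ko, and 73.4, 64.3 and 62.2 TPM in HIF1α/2α-ko. All HIF1α-ko libraries were below and all HIF2α-ko libraries above vector, by -0.30 (SE 0.11, adjusted p = 0.0619) and 0.14 (SE 0.11, adjusted p = 0.461), and neither passed. The HIF1α-ko difference passed in 6 of 20 settings, among them median ratio scaling (-0.50, adjusted p = 0.0353) and the replicate number as a block (-0.30, adjusted p = 0.0384). In HIF1α/2α-ko the difference was -0.06 (adjusted p = 0.688; 95% interval -0.30 to 0.18).

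BMF, which is tethered to the cytoskeleton through dynein light chains, was at 9.02, 6.01 and 7.61 TPM in vector, 8.03, 8.79 and 7.48 TPM in HIF1α-ko, 6.22, 5.63 and 5.45 TPM in HIF2α-ko, and 4.38, 9.55 and 9.34 TPM in HIF1α/2α-ko. The HIF1α/2α-ko libraries spanned more than the whole range of the vector libraries. HIF1α-ko differed from vector by 0.10 (adjusted p = 0.776), HIF2α-ko by -0.32 (adjusted p = 0.422) and the dual knockout by -0.01 (adjusted p = 0.967; 95% interval -0.53 to 0.51). BIK was listed at 0 in all vector and HIF1α-ko libraries, at 0.0814 and 0.0891 TPM in HIF2α-ko replicates 2 and 3, and at 0.0388 TPM in HIF1α/2α-ko replicate 3.

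Counted over the family, 6 of the 9 tested genes were higher in HIF1α/2α-ko (BAX, BAK1, BBC3, PMAIP1, BCL2L11 and HRK), or 5 of 8 without BCL2L11, which the filter let in through the groups where it was high. None was lower, and the libraries of all 6, BCL2L11 among them, stood apart from vector. Over all tested genes 31.8% were called higher and 14.8% lower in this comparison, and 33.1% stood apart upward. In HIF1α-ko 4 of 9 were higher (BAX, BAK1, BBC3 and BCL2L11), or 3 of 8 without BCL2L11, beside 17.3% of all genes. None was lower, beside 8.77%, and the same 4, BCL2L11 among them, stood apart upward, beside 27.3%. In HIF2α-ko 2 of 9 were higher (BAD and HRK), beside 5.07% of all genes, none was lower, beside 5.89%, and 5 stood apart upward (BAD, HRK, BBC3, BAK1 and BID), beside 12.6%. The median fold change of the 9 tested members was 0.94 in HIF1α/2α-ko (0.87 without BCL2L11), and over all tested genes it was 0.21. For HIF1α-ko the values were 0.49 (0.43) and 0.18, and for HIF2α-ko 0.22 (0.30) and -0.04. Median ratio scaling brings the median of all genes to between -0.00 and 0.01. Less the median of all genes in the unscaled fit, the rises in HIF1α/2α-ko were 2.04 for BAK1, 1.83 for BBC3, 1.77 for PMAIP1, 0.96 for BCL2L11, 0.73 for BAX and 0.59 for HRK. All 6 calls held in every setting that gave a value. For BCL2L11, which entered the test through the groups where it was high, this is a description and not evidence. The 3 comparisons share the vector libraries and are not independent of one another.

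The dual knockout was also set against each single knockout. Against HIF1α-ko, BBC3 (1.47, adjusted p = 7.58e-05), PMAIP1 (1.39, adjusted p = 0.00828), BAK1 (1.24, adjusted p = 0.000125), HRK (0.80, adjusted p = 0.000944) and BAX (0.56, adjusted p = 0.00724) were higher, which is 5 of 9 (17.7% of all genes were higher and 10.6% lower), and BCL2L11 differed by 0.43 (adjusted p = 0.162) with overlapping libraries. Against HIF2α-ko, BAK1 (2.02, adjusted p = 1.96e-06), BBC3 (1.66, adjusted p = 9.38e-06), PMAIP1 (1.44, adjusted p = 0.00356), BCL2L11 (0.97, adjusted p = 0.00329) and BAX (0.73, adjusted p = 0.000672) were higher, again 5 of 9, or 4 of 8 without BCL2L11 (33.5% of all genes). For BCL2L11, which entered the test through the groups where it was high, that p-value is a description and not evidence. BAD was lower (-0.54, adjusted p = 0.0356, beside 12.9% of all genes), a call lost in 6 of 21 settings. HRK, which the HIF2α-ko cells already had at a raised level, differed from them by 0.27 (adjusted p = 0.104). With the replicate number as a block over the 3 knockout groups this difference passed (0.27, adjusted p = 0.0436), as did that of BID from HIF1α-ko (0.24, adjusted p = 0.0414; 0.121 without the block).

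Whether the knockouts add up was tested with the interaction term, the dual knockout's fold change less the sum of those of the single knockouts. It was positive for BBC3 (1.09, 95% interval 0.61 to 1.58, adjusted p = 0.00607) and BAK1 (1.02, 0.57 to 1.47, adjusted p = 0.00621), and 13.2% of all genes were called so. Put as the difference that goes with the HIF2α knockout, BAK1 gained 1.24 on the HIF1α knockout background and 0.22 on the background without it. The lines carrying the HIF1α knockout were not matched in HIF1A, whose transcript gained 0.64 between them, from single to dual (adjusted p = 0.0287). The HIF1A interaction term was 1.15 (adjusted p = 0.0131), and its part in the members' terms was not tested. For BAD the term was negative (-1.03, -1.62 to -0.44, adjusted p = 0.0209; 7.35% of all genes): the single knockouts were higher than vector by 0.49 and 0.77, and the dual by 0.22. This last call was lost in 4 of 19 settings, without the filter (adjusted p = 0.0554) and without replicate 3 of any 1 knockout group, and those of BBC3 and BAK1 held in all 19. The term was 0.86 for PMAIP1 (95% interval -0.15 to 1.87, adjusted p = 0.210) and 0.35 for BAX (-0.05 to 0.75, adjusted p = 0.195), so neither passed, and the intervals are wide. HRK (0.27), BCL2L11 (0.24), BMF (0.21) and BID (0.11) did not pass either.

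The survival genes, which hold the effectors back, were set beside them. BCL2L1 was at 113, 67.5 and 66.1 TPM in vector, 123, 101 and 101 TPM in HIF1α-ko, 127, 92.2 and 89.5 TPM in HIF2α-ko, and 203, 193 and 202 TPM in HIF1α/2α-ko, and it rose in the last by 1.31 (SE 0.20, adjusted p = 0.000219). MCL1 was at 64.7, 39.9 and 47.5 TPM in vector, 50.1, 81.8 and 79.1 TPM in HIF1α-ko, 57.5, 76.4 and 75.9 TPM in HIF2α-ko, and 72.9, 102 and 101 TPM in HIF1α/2α-ko, where it rose by 0.86 (SE 0.23, adjusted p = 0.00847). Vector replicate 1 was the highest vector library for both genes. BCL2L2 (0.49, adjusted p = 0.497) and BCL2A1 (-0.50, adjusted p = 0.377) did not pass, so 2 of the 4 tested survival genes were higher, beside 31.8% of all genes. Their median was 0.67, beside 0.94 for the pro-apoptotic genes (0.87 without BCL2L11) and 0.21 for all genes. BCL2 itself, at no more than 1.28 TPM, and BCL2L10, at no more than 0.140 TPM, were below the filter. No survival gene passed in HIF1α-ko, where 17.3% of all genes were higher, or in HIF2α-ko, where 5.07% were. The median of the 4 tested survival genes was 0.45 in HIF1α-ko and 0.39 in HIF2α-ko. For the pro-apoptotic genes it was 0.49 and 0.22 (0.43 and 0.30 without BCL2L11), and for all genes 0.18 and -0.04. In the single knockouts the survival genes thus did not trail the pro-apoptotic genes as they did in HIF1α/2α-ko.

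Ratios within a library show how the pairs moved against each other. BAX over BCL2L1 was 0.945, 2.00 and 1.88 in vector and 0.985, 1.33 and 1.23 in HIF1α/2α-ko, and these ranges overlap through vector replicate 1 alone. Without it the vector ratios, 1.88 and 2.00, lay above all those of HIF1α/2α-ko. BBC3 over BCL2L1 was 0.0414 to 0.0624 in vector and 0.0959 to 0.0980 in HIF1α/2α-ko, BAK1 over MCL1 0.0345 to 0.0600 and 0.134 to 0.209, and PMAIP1 over MCL1 0.0183 to 0.0560 and 0.0839 to 0.106. For these last 3 pairs every HIF1α/2α-ko library was above every library of the other groups. The ratios were not tested and compare transcripts, not proteins.

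Genes around the family were read from lists, with the pair of smallest p in HIF1α/2α-ko named from each. Their counts stand beside shares over all tested genes of 31.8% higher and 14.8% lower in HIF1α/2α-ko, 17.3% and 8.77% in HIF1α-ko, and 5.07% and 5.89% in HIF2α-ko, and their medians in HIF1α/2α-ko beside 0.21, so that the relatives, for example, were called higher about as often as genes in general. Of 9 tested relatives of the family and other mediators of death, 3 were higher and 2 lower in HIF1α/2α-ko, with a median fold change of -0.26. In HIF1α-ko 2 were higher and 4 lower, and in HIF2α-ko none passed. AEN, an exonuclease linked to apoptosis, rose by 4.19 (adjusted p = 1.09e-07), from 1.59 to 2.02 TPM in vector to 42.6 to 56.4 TPM. BNIP3, a mitophagy receptor and HIF1α target with a BH3-like stretch, fell by 2.83 (adjusted p = 1.56e-06), and it was at 63.1 to 80.1 TPM in HIF1α-ko against 645 to 1289 TPM in vector. Of 12 genes whose products carry, anchor, cleave or degrade members, 6 were higher and none lower (median 0.52), against 2 higher in HIF1α-ko and 1 in HIF2α-ko. Among them DYNLL2, the dynein light chain that tethers BMF, rose by 0.91 (adjusted p = 6.78e-05), and MTCH2, the mitochondrial receptor of cleaved BID, by 1.15 (adjusted p = 8.2e-05).

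Of 12 tested genes downstream of the opened mitochondrion, 9 were higher in HIF1α/2α-ko (31.8% of all genes) and none lower (median 0.63); 1 of the 9 was XIAP (1.34, adjusted p = 0.000273), which inhibits caspases. CYCS, cytochrome c itself, was at 2.89 to 4.42 TPM in vector and 19.5 to 28.6 TPM in HIF1α/2α-ko (2.53, adjusted p = 4.4e-06), and AIFM1, which encodes apoptosis-inducing factor, rose by 2.85 (adjusted p = 6.48e-06). Both proteins also serve the respiratory chain. The corresponding counts were 6 of 12 in HIF1α-ko (17.3% of all genes) and 1 of 12 in HIF2α-ko (5.07%), none lower in either.

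Of 10 tested transcription factors known to act on members, 2 were higher in HIF1α/2α-ko, beside 31.8% of all genes, and 1 was lower (median 0.05). In HIF1α-ko 2 were higher and 3 lower, and in HIF2α-ko 2 were lower. DDIT3 (CHOP), a stress factor that raises BCL2L11 and BBC3, was at 95.3 to 129 TPM in vector, 267 to 372 TPM in HIF1α-ko, 131 to 283 TPM in HIF2α-ko and 337 to 600.2 TPM in HIF1α/2α-ko, where it rose by 2.08 (adjusted p = 8.41e-05). ATF4, which induces DDIT3 in the integrated stress response, rose by 1.00 (adjusted p = 0.000195).

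The genes with the pattern most like that of each leading member, by Pearson's r of log2(TPM + 1) over the 12 libraries, were CLCN7 (0.985), MYG1 (0.981) and CISD3 (0.979) for BAX, UPF1 (0.993), DYNLL2 (0.989) and KIF1C (0.987) for BAK1, and BICDL1 (0.981), GRWD1 (0.980) and TRIM47 (0.979) for BBC3. The libraries fall into 4 groups, so these coefficients mainly rank genes by how their group means are ordered: CLCN7 had means of 10.1 TPM in vector, 13.9 TPM in HIF2α-ko, 19.8 TPM in HIF1α-ko and 48.1 TPM in the dual knockout, the same order as BAX. Counting the gene itself, 413, 678 and 512 tested genes had an r above 0.9 with BAX, BAK1 and BBC3, so likeness of this degree is common in these libraries. Among the members, BAK1 and BBC3 were the most alike (0.958) and BID and BMF the least (-0.660).

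On GRCh38 with GENCODE 29, all 10 members are protein-coding. BAX lies at chr19:48954815-48961798 on the plus strand and BBC3 at chr19:47220822-47232766 on the minus strand of the same chromosome arm, and BID (chr22:17734138-17774770, minus) and BIK (chr22:43110748-43129712, plus) share chromosome 22. BAK1 is at chr6:33572547-33580293 (minus), PMAIP1 at chr18:59899948-59904306 (plus), BCL2L11 at chr2:111119378-111168447 (plus), BAD at chr11:64269830-64284704 (minus), BMF at chr15:40087890-40108892 (minus) and HRK at chr12:116856144-116881441 (minus). On the opposite strand BMF-AS1 shares 8.46% of the BMF exon bases, GGNBP1 4.11% of those of BAK1 and MIR3190 2.52% of those of BBC3, and MIR3191 shares 2.39% of the BBC3 exon bases on the same strand.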

How the data were processed

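Messenger RNA of the 12 libraries was sequenced from 1 μg of total RNA each, and the authors deposited gene TPM values, with 1 column per library and no pooling. Per the labels, the submitters' processing notes name FastQC 0.11.2, Trimmomatic 0.36, HISAT2 2.0, bedtools 2.26.0 and GRCh38; the counter, the annotation and the use of strand are not given in the sources used here. TPM totals were 999955 to 999982, so depth is unknown and no counting interval or detection limit could be given. The 10 most abundant genes took 18.2 to 23.9% of a library.

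Groups came from the labels; the vector columns were identified by the lack of a knockout code. Symbols were matched for 20148 of 20263 genes, 76 more through GENCODE 29, and 39 had none. Values were transformed to log2(TPM + 1), genes with at least 1 TPM in at least 3 libraries were kept, and limma 3.58.1 in R 4.3.3 was fitted to all 4 groups with a mean-variance trend, since the methods state no sequencing test. Adjusted p is by Benjamini-Hochberg within a comparison, with a threshold of 0.05. The fit was also run on simulated data with independent noise and few changed genes, a simpler case than these libraries, so that run cannot show how it does on them.

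The members, gene lists and tests were chosen with earlier results of these data known, so no list is independent evidence. Named were all members, all survival genes, the targeted genes and, from each further list, the 2 tested genes of smallest p in HIF1α/2α-ko; 1 gene and what rests on it are not reported here. Same-numbered libraries of the 3 knockout groups deviated together from their group means (r across genes 0.196 to 0.508), and those of vector did not (-0.0265 to 0.163 with the knockouts); the pairing thus comes from the values alone. Alternatives were a pseudocount of 0.1, no filter, a mean TPM of at least 5, median ratio scaling, quantile normalization, only the groups compared, no trend, the replicate block and each library left out. Promoters came from RefSeq and covered 9 members in 15 windows; BIK had none. Tables were made with pandas 2.3.3 and numpy 2.4.6 in Python 3.11.15, and figures with matplotlib 3.10.9.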

Additional observations from a re-analysis of the deposited data

Results flagged for a closer look

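For 3 of the 9 tested members the effect of knocking out HIF2α differed between cells with and without the HIF1α knockout. The test was the interaction term of the limma fit, in which 13.2% of all tested genes were called higher and 7.35% lower. The lines with the HIF1α knockout were not matched in HIF1A, as given above. The effect was larger with the HIF1α knockout for BBC3 (1.09, adjusted p = 0.00607) and BAK1 (1.02, adjusted p = 0.00621). For BAD it had the opposite sign in the 2 backgrounds (interaction -1.03, adjusted p = 0.0209), a call lost in 4 of 19 settings. The log2 fold change was 0.77 without the HIF1α knockout and -0.26 with it, and the latter did not pass on its own (adjusted p = 0.338).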

How the results depend on the processing

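The 6 rises in HIF1α/2α-ko and the BAK1 rise in HIF1α-ko held in every alternative that gave a value. A mean TPM of at least 5 gave none for PMAIP1 and BCL2L11. The BCL2L11 calls remain a description, as this gene entered the test through the groups where it was high. The other calls against vector were lost in at least 5 settings each. Calls in HIF1α-ko, 4 members, became 2 with quantile normalization (1 higher and 1 lower) and 2 with only the groups compared, and 1 to 5 with a library left out, 1 being without HIF1α-ko replicate 3. Calls in HIF2α-ko, 2 members, became 1 without the filter, 0 with only the groups compared and 0 to 3 with a library left out. The members' median less that of all genes moved from 0.31 to 0.43 (no filter) and to 0.11 to 0.33 (a library left out; 0.11 without vector replicate 1) in HIF1α-ko, from 0.27 to 0.44 (pseudocount 0.1) and to 0.22 to 0.43 in HIF2α-ko, and from 0.73 to 0.87 (no filter and quantile normalization), 0.58 (mean TPM of at least 5) and 0.62 to 0.84 in HIF1α/2α-ko. The sign turned only for values that did not pass. In HIF1α-ko this was so for BMF (median ratio -0.070, quantile -0.084, a library left out -0.032 to 0.23) and HRK (median ratio -0.15, quantile -0.19, a library left out -0.026 to 0.033). In HIF1α/2α-ko it was so for BAD (median ratio -0.021) and BMF (a library left out -0.18 to 0.30, the highest without HIF1α/2α-ko replicate 1). BMF in the dual against HIF1α-ko was -0.28 to 0.20 with a library left out, and without HIF1α/2α-ko replicate 1 it was, past the threshold, 0.63 above HIF2α-ko (adjusted p = 0.0103). Quantile normalization turned BMF (-0.040) and HRK (-0.084) against HIF2α-ko and the BID interaction (-0.028), and both it and median ratio scaling called BID lower against HIF2α-ko (-0.42, adjusted p = 0.0114 and -0.50, adjusted p = 0.0197). Medians of neighbouring lists less that of all genes turned for the carriers in HIF1α-ko (0.023, no filter), the relatives in HIF2α-ko (0.0052, mean TPM of at least 5) and the transcription factors in HIF1α/2α-ko (0.025, no filter). The cause of these shifts was not tested.

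With the replicate number as a block over all 12 libraries, 5 members were called in HIF1α-ko, 2 in HIF2α-ko, 6 in the dual against vector, 5 and 6 against HIF1α-ko and HIF2α-ko, and 3 in the interaction. Over the 3 knockout groups alone the block gave 6 and 7 in the dual against HIF1α-ko and HIF2α-ko. Shares of all tested genes called were taken in the main fit alone. Counts of members under the alternatives, here and above, therefore show only how calls depend on the setting. Apart from the BID and HRK differences given above, the block changed no call of a member. TPM without depth leaves the precision of BCL2L11, PMAIP1 and BIK unknown.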
